A study of Mus musculus with 18 samples.

Results

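The genes described here are 4 uroplakins (Upk1a, Upk1b, Upk3a and Upk3b) and 3 further genes used as markers of mesothelium (Msln, Wt1 and Lrrn4). They are all 7 rows of the gene table that carry these names, out of 13384 listed genes, and 5 of them (Upk1a, Upk1b, Upk3b, Msln and Lrrn4) passed the filter on low values, which asks for at least 1 FPKM in at least 3 of the 9 libraries. The set was selected on the FPKM values of these libraries: Upk1a had been called in BMSC-treated against COPD model lungs, so that comparison is given for all members as a description, with no test. Messenger RNA of mouse lungs was sequenced in 9 libraries, 3 in each of 3 groups. The BMSC-treated mice, labelled VC, breathed cigarette smoke, had smoke extract injected into the peritoneum, and then had 4000000 BMSCs put into a tail vein in 100 µl of saline buffer. BMSCs are the mesenchymal stem cells of the study's title. The COPD model mice had the same smoke and extract with buffer in place of cells, and the control mice had buffer without smoke or extract. COPD is chronic obstructive pulmonary disease. The labels used here give no strain, age or sex, and do not tie libraries to single animals, so every p measures the spread between these samples, which may be technical.

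Uroplakins are membrane proteins that cover the apical surface of the urothelium, the lining of the bladder, in rigid plaques. Upk1a and Upk1b are tetraspanins, proteins that cross the membrane repeatedly and escort a partner to the surface: Upk1a pairs with Upk2, and Upk1b pairs with Upk3a or Upk3b. Outside the bladder, Upk1b and Upk3b are expressed in mesothelium, the flat epithelium that covers the lung as the visceral pleura, and in mouse airways Upk3a marks a small set of club-like secretory cells near neuroepithelial bodies. Msln encodes mesothelin, a surface protein held by a lipid anchor and cut from its precursor by furin. Lrrn4 encodes a membrane protein with leucine-rich repeats that marks mesothelial cells, and Wt1 encodes a zinc finger transcription factor of the embryonic and adult mesothelium.

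The libraries differed in ways that touch every level below. Values are FPKM, which are scaled to transcript length and to library size, so levels of different genes can be compared, but the value of a gene depends on what else is in its library. Mitochondrial transcripts held 55.6% to 92.2% of the FPKM in BMSC-treated, 23.9% to 30.0% in COPD model and 46.9% to 89.25% in control libraries. BMSC-treated 1 and control 1 stood apart, with 1193 and 1038 genes listed at 0, against 107 to 201 in the other 7. Lung markers were present in every library: 8 markers of alveolar type 2 cells, the makers of surfactant, summed to 1078 to 3110 FPKM in BMSC-treated, 3259 to 5855 FPKM in COPD model and 1260 to 3985 FPKM in control libraries. The number of reads behind an FPKM value is unknown, so a gene is described as listed at 0 and not as absent. In a bulk tissue sample, fewer cells of a type and less RNA per cell cannot be told apart.

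Upk1a, the bladder tetraspanin and the receptor of the urothelium for fimbriated Escherichia coli, was listed at 0 in all 3 BMSC-treated libraries. It had 1.72, 2.11 and 3.22 FPKM in COPD model libraries 1, 2 and 3. In control libraries 1, 2 and 3 it was listed at 0, 0.322 and 4.05 FPKM. The BMSC-treated and COPD model libraries did not overlap, while the control libraries spanned both, from the level of the treated lungs to a value above every COPD model library. Upk1a reached 1 FPKM in 4 of 9 libraries, 3 of them COPD model and 1 control, so it passed the filter largely through the group in which it was high.

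Upk2, the partner of Upk1a in urothelial plaques, is no member but was listed in 8 of 9 libraries above 0. It had 0, 2.14 and 2.32 FPKM in BMSC-treated libraries, against 5.39, 8.35 and 4.84 FPKM in COPD model libraries, and 0.403, 4.10 and 6.60 FPKM in control libraries. As for Upk1a, the BMSC-treated libraries lay below all COPD model libraries and overlapped the control ones. The log2 change of Upk2 on the log2(FPKM + 1) scale was -1.69 ± 0.62 (SE) for BMSC-treated against COPD model and did not pass (adjusted p = 0.375, limma with Benjamini-Hochberg adjustment over 11765 genes). For COPD model against control it was 0.89 ± 0.62 (adjusted p = 0.514, limma). The partners kept no fixed ratio: where both were above 0, Upk2 was 1.50 to 12.8 times Upk1a over 5 libraries, and the BMSC-treated libraries 2 and 3 kept Upk2 above 2 FPKM with Upk1a listed at 0.

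Upk3a, the plaque partner of Upk1b, stayed low. It had 0, 0.213 and 0.245 FPKM in BMSC-treated libraries, 0.904, 0.899 and 0.377 FPKM in COPD model libraries, and 0, 1.85 and 1.12 FPKM in control libraries. The BMSC-treated libraries were again below all COPD model libraries, as for 29.3% of all listed genes, and overlapped the control ones. On FPKM rescaled as described below for the mesothelial genes, the values were at most 0.243 in BMSC-treated and at least 0.269 in COPD model libraries. This narrow gap lies below 1 FPKM. The share of all genes apart on the rescaled values was not counted, and the set was chosen from this comparison, so the gap supports nothing. Upk3a reached 1 FPKM in 2 libraries, both control, and was therefore not tested.

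Upk1b was the one uroplakin above 0 in all 9 libraries. It had 0.636, 8.01 and 22.8 FPKM in BMSC-treated libraries, 4.62, 4.12 and 21.7 FPKM in COPD model libraries, and 1.53, 6.03 and 2.65 FPKM in control libraries. Library 3 was far the highest in the BMSC-treated and COPD model groups and not in control, and all groups overlapped. Upk3b, the uroplakin named most often as a mesothelial marker, had 0, 5.96 and 21.6 FPKM in BMSC-treated libraries, 0, 1.85 and 22.4 FPKM in COPD model libraries, and 1.41, 6.07 and 1.78 FPKM in control libraries. It showed the same highest libraries as Upk1b. The ratio of Upk3b to Upk1b lay between 0.450 and 1.03 in the 7 libraries in which both were above 0. In BMSC-treated 1 and COPD model 1, Upk3b was listed at 0 with Upk1b at 0.636 and 4.62 FPKM. The ratio of Upk1b to Upk3a ranged far wider, from 2.37 to 93.3 over 7 libraries.

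Msln, which encodes mesothelin, had 4.85, 6.67 and 24.2 FPKM in BMSC-treated libraries, 1.09, 2.85 and 22.4 FPKM in COPD model libraries, and 0, 6.59 and 3.20 FPKM in control libraries. Library 3 was again the highest of the BMSC-treated and of the COPD model group, and control overlapped both. In the 6 libraries in which both were above 0, Upk3b was 0.557 to 0.997 times Msln. In BMSC-treated 1 and COPD model 1, however, Msln was above 0 with Upk3b listed at 0, and in control 1 the reverse held. Lrrn4 had 0, 1.58 and 3.27 FPKM in BMSC-treated libraries, 0, 0.435 and 4.93 FPKM in COPD model libraries, and 0, 0.615 and 0.332 FPKM in control libraries. Its order among the libraries of each group was that of Msln, and all control libraries were below 1 FPKM. Lrrn4 reached 1 FPKM in 3 of 9 libraries, BMSC-treated 2 and 3 and COPD model 3. It thus passed the filter only through libraries in which it was high, and its comparisons with control below carry that limit.

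Wt1 stayed at or below 1.11 FPKM. It had 1.05, 0.204 and 0.633 FPKM in BMSC-treated libraries, 0.113, 0.229 and 0.982 FPKM in COPD model libraries, and 1.11, 0.682 and 0 FPKM in control libraries. Its highest values were those of control 1 and BMSC-treated 1, the libraries with the most genes listed at 0, and COPD model 3 came next. Within the COPD model group library 3 was thus again the highest, 4.29-fold above the higher of the others, but BMSC-treated 3 was not the highest of its group. With 2 of 9 libraries at 1 FPKM or more it was not tested. Of the other defining mesothelial genes on the list, Bnc1, a zinc finger factor, Muc16, the mucin that binds mesothelin, and Calb2, which encodes calretinin, were not among the listed genes, nor were Tm4sf5 and Tmem151a.

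**Figure D1:**
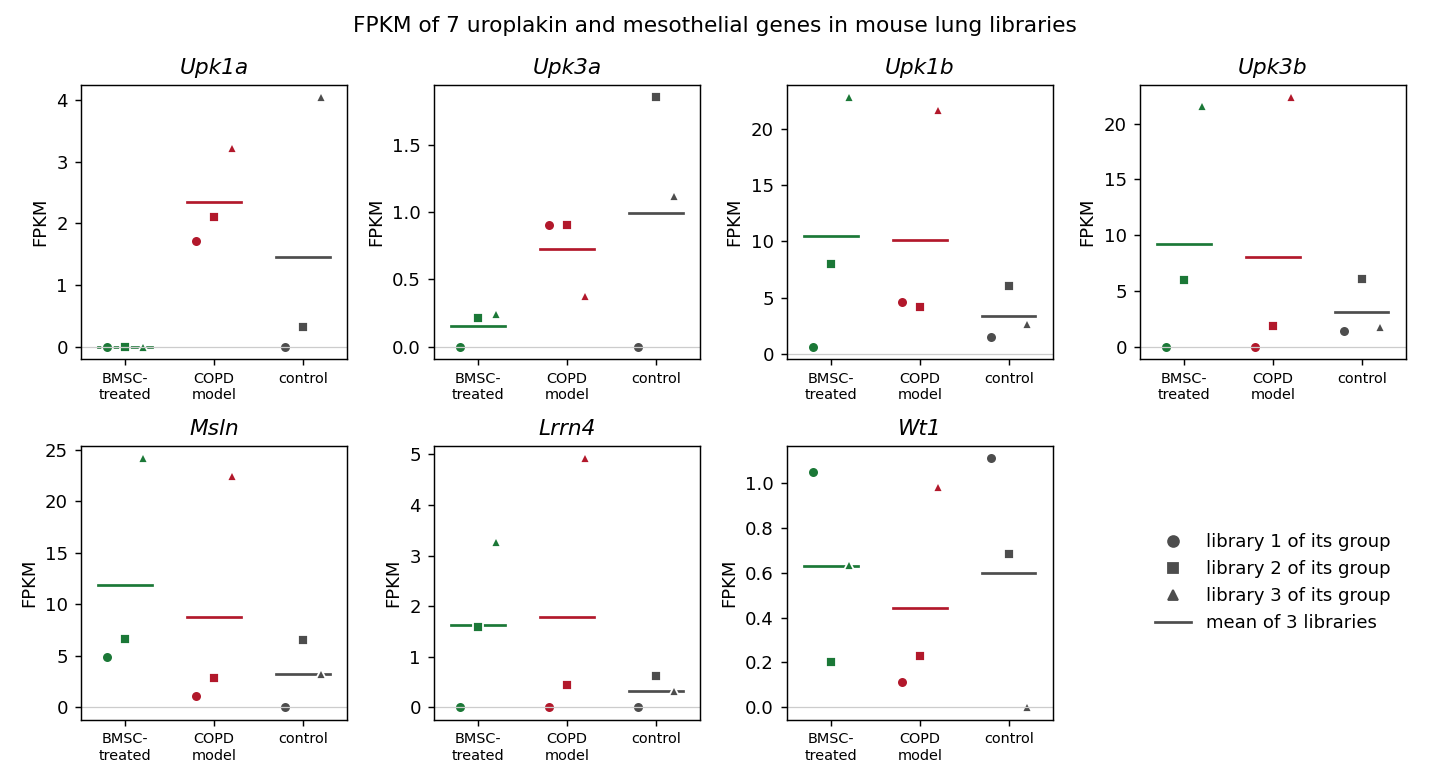
FPKM of the 7 genes (y axes, linear and with a scale for each gene) in BMSC-treated, COPD model and control lungs; each symbol is 1 library, its shape gives the library number, and the line is the mean of 3. Upk1a is at 0 in all BMSC-treated libraries, and library 3 of the BMSC-treated and COPD model groups is highest for Upk1b, Upk3b, Msln and Lrrn4.

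Upk1b, Upk3b, Msln and Lrrn4 thus shared their highest libraries, COPD model 3 and BMSC-treated 3, and differed widely among libraries of one group. Summed over these 4 genes, the level was 5.49, 22.2 and 71.9 FPKM in BMSC-treated libraries, 5.71, 9.25 and 71.4 FPKM in COPD model libraries, and 2.94, 19.3 and 7.97 FPKM in control libraries. COPD model 3 stood above the higher of the other COPD model libraries 4.70-fold for Upk1b, 12.1-fold for Upk3b, 7.88-fold for Msln and 11.3-fold for Lrrn4, beside a median of 1.08-fold over the 11765 genes tested. BMSC-treated 3 stood above the higher of the other BMSC-treated libraries 2.85-fold for Upk1b, 3.63-fold for Upk3b, 3.63-fold for Msln and 2.07-fold for Lrrn4, beside a median of 1.43-fold. A difference of at least 2-fold was reached by 4 of the 5 tested members in COPD model 3, against 5.1% of the genes tested, by 4 of 5 in BMSC-treated 3, against 15.3%, and by 4 of 5 in both, against 1.22%. This fold was chosen after the values were seen, so the share describes the pattern and is no test of it. Lrrn4, 1 of the 4, passed the filter only through libraries in which it was high, COPD model 3 and BMSC-treated 2 and 3. Its place in these counts was therefore partly set by the filter.

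The height of BMSC-treated 3 depended on the scaling more than that of COPD model 3. FPKM was rescaled so that all genes other than Scgb1a1, the club cell secretoglobin that dominates the COPD model libraries, and the mitochondrial genes had an equal sum in each library. On that scale the 4 genes summed to 18.5, 25.5 and 56.8 in BMSC-treated libraries, 4.36, 7.19 and 51.0 in COPD model libraries, and 6.98, 20.3 and 6.65 in control libraries. COPD model 3 remained 4.40-fold to 11.1-fold above the higher of libraries 1 and 2 for each of the 4 genes. BMSC-treated 3 was 1.96-fold above for Upk1b, 2.50-fold for Upk3b, 1.17-fold for Msln and 1.42-fold for Lrrn4. Msln in BMSC-treated 1 came to 16.4 on that scale, against 7.64 in BMSC-treated 2 and 19.1 in BMSC-treated 3.

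**Figure D2:**
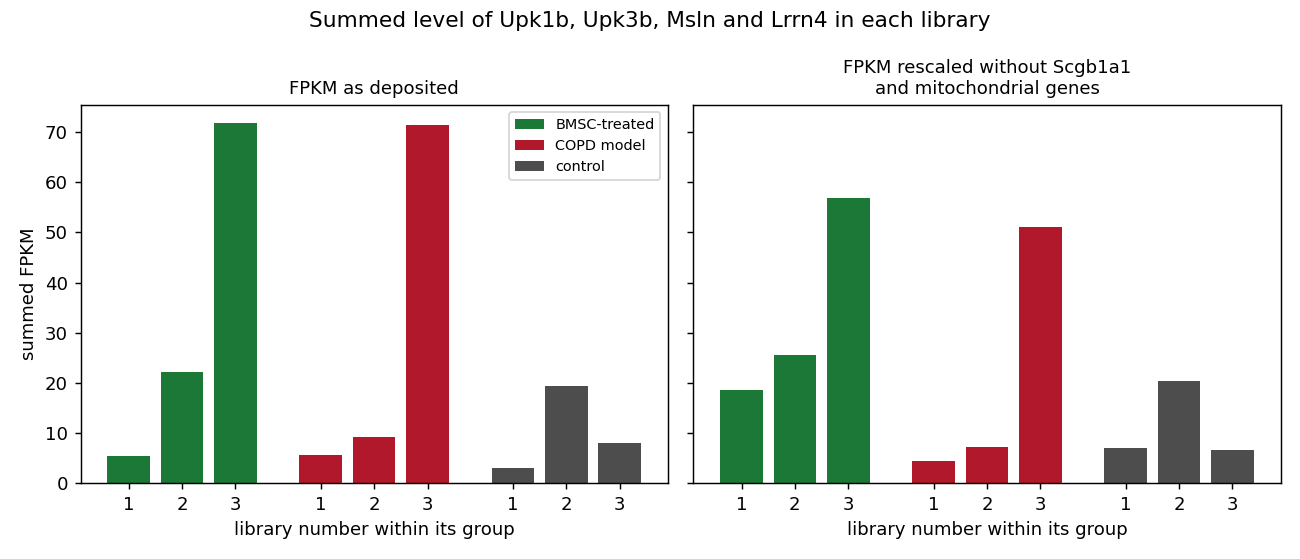
Summed FPKM of Upk1b, Upk3b, Msln and Lrrn4 (y axis, linear) in each library by its number within the group (x axis), as deposited on the left and rescaled without Scgb1a1 and the mitochondrial genes on the right. COPD model 3 stands at 71.4 against 5.71 and 9.25 for COPD model 1 and 2 as deposited, and at 51.0 against 4.36 and 7.19 when rescaled.

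The regions before the start sites of 3 members are printed. Upk3b and Lrrn4 were highest in COPD model 3 and BMSC-treated 3, while Upk1a was listed at 0 in BMSC-treated 3. Upk1a was also the highest of its group in COPD model 3, but only 1.53-fold above the higher of the others. The windows are from RefSeq on GRCm38.p6, which held them for 4 of the 7 members, and each line gives the 250 bases before the start, 5′ to 3′ on the strand of the gene. The motifs were chosen with these sequences in view. Capitals mark GGAATG or its reverse complement CATTCC, the core bound by TEAD factors, the DNA-binding partners of YAP. Upk3b lies on the plus strand of chromosome 5, with its window at chr5:136038246-136038495. Lrrn4 lies on the minus strand of chromosome 2, with its window at chr2:132880863-132881112, before a RefSeq start that lies inside the span of the gene given below. Upk1a lies on the minus strand of chromosome 7, with its window at chr7:30612735-30612984.
Upk3b: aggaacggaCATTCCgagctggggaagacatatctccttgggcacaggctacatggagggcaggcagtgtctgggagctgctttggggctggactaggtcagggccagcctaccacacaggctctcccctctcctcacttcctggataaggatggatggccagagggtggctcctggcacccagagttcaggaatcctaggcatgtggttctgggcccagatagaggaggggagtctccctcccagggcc
Lrrn4: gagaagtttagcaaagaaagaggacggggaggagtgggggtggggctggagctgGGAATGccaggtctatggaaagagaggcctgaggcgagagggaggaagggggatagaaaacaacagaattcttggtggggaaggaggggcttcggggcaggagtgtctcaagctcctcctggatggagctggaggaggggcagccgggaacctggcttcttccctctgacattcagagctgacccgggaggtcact
Upk1a: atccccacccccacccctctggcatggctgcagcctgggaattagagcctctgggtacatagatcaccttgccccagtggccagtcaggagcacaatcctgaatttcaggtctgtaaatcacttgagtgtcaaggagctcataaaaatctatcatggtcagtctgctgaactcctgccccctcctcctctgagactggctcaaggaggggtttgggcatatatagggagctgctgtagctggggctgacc
The Upk3b window held 1 match, its first base 241 bases before the start, and the Lrrn4 window held 1, its first base 196 bases before the start, while the Upk1a window held 0. Of all 32817 windows of this length in the table, 12.6% hold a match on either strand. None of these 3 windows held the GC box GGGCGG, present in 32.7% of windows, the TATA motif TATAAA, in 12.4%, or CAGGTG, an E-box that Snail factors bind, in 17.2%, each on either strand. Only these exact letters were searched, and variants such as the TATATA near the 3′ end of the Upk1a window were not counted. The window of Upk3a, the other plaque uroplakin, held 2 GC boxes and 0 of the other motifs. A match is a description of the letters and no site of binding.

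In the RefSeq annotation of GRCm38.p6, the patched form of mm10, Upk1a spans 30603092 to 30612734 of chromosome 7, Upk1b 38773182 to 38800203 of chromosome 16, Upk3a 85017141 to 85022560 of chromosome 15 and Upk3b 136038496 to 136044993 of chromosome 5. Msln spans 25748613 to 25754378 of chromosome 17, and Wt1 and Lrrn4 lie apart on chromosome 2, at 105126529 to 105173614 and 132866686 to 132894010. The span of Lrrn4 overlaps Crls1, the gene of cardiolipin synthase, and that of Upk3a a predicted long noncoding RNA, Gm52194. The sources used here do not say whether reads were assigned by strand, so reads of these overlapping genes may be shared. The other 5 members overlap no other gene of that annotation.

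Other mesothelial markers were set beside these genes. Of 18 on the list, 13 were in the table and 11 were tested. The list fell into those that stood highest in COPD model 3 and those that did not. Gpm6a, a membrane glycoprotein of neurons and mesothelium, had 1.66, 6.26 and 13.6 FPKM in BMSC-treated libraries, 1.18, 3.61 and 27.6 FPKM in COPD model libraries, and 2.32, 3.93 and 2.02 FPKM in control libraries. Aldh1a2, which makes retinoic acid, had 0.712, 4.22 and 9.70 FPKM in BMSC-treated libraries, 1.19, 1.997 and 17.1 FPKM in COPD model libraries, and 1.45, 5.39 and 3.07 FPKM in control libraries. Cldn15, a claudin of tight junctions, had 0, 2.57 and 4.94 FPKM in BMSC-treated libraries, 0, 1.28 and 7.12 FPKM in COPD model libraries, and 0.613, 2.18 and 0.701 FPKM in control libraries. These genes and Rspo1, a secreted enhancer of Wnt signalling at 6.64 FPKM in COPD model 3 against 1.59 and 3.21 FPKM in COPD model 1 and 2, are the 4 of 11 tested markers at least 2-fold above the other libraries in COPD model 3, beside the same 5.1% of genes tested. Rescaled, Rspo1 fell to 1.90-fold there, while Gpm6a, Aldh1a2 and Cldn15 stood at 7.03-fold, 7.86-fold and 5.12-fold. In BMSC-treated 3, 6 of 11 reached 2-fold as deposited, beside 15.3% of genes tested: Gpm6a, Aldh1a2, Anxa8 and the keratins Krt19, Krt8 and Krt18. On the rescaled FPKM, Krt19 alone of the tested markers did so, at 2.26-fold, with Gpm6a at 1.50-fold and Aldh1a2 at 1.59-fold. As deposited, 2 of 11 (Gpm6a and Aldh1a2) reached it in both libraries, beside 1.22%. Pkhd1l1 and Ildr2, too low to be tested, were 10.8-fold and 6.18-fold above in COPD model 3.

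Keratins of simple epithelia, which airway epithelium shares with mesothelium, were mostly more abundant and did not peak in COPD model 3, apart from Krt7. Krt19 had 11.4, 38.4 and 125.9 FPKM in BMSC-treated libraries, 148.1, 153.9 and 132.6 FPKM in COPD model libraries, and 13.7, 103.0 and 124.5 FPKM in control libraries. Krt8 and Krt18, its partners in simple epithelial filaments, and Anxa8, an annexin, were likewise lower in COPD model 3 than in the higher of the other COPD model libraries, at 0.871, 0.783 and 0.730 times its level. Nkain4 had 0, 17.3 and 25.9 FPKM in BMSC-treated libraries, 15.1, 5.95 and 17.7 FPKM in COPD model libraries, and 2.92, 6.36 and 8.90 FPKM in control libraries, and Sbspon was highest in COPD model 1, at 6.28 FPKM. Krt7 was highest of all libraries in COPD model 3, at 31.6 FPKM against 18.1 and 23.2 FPKM in COPD model 1 and 2.

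**Figure D3:**
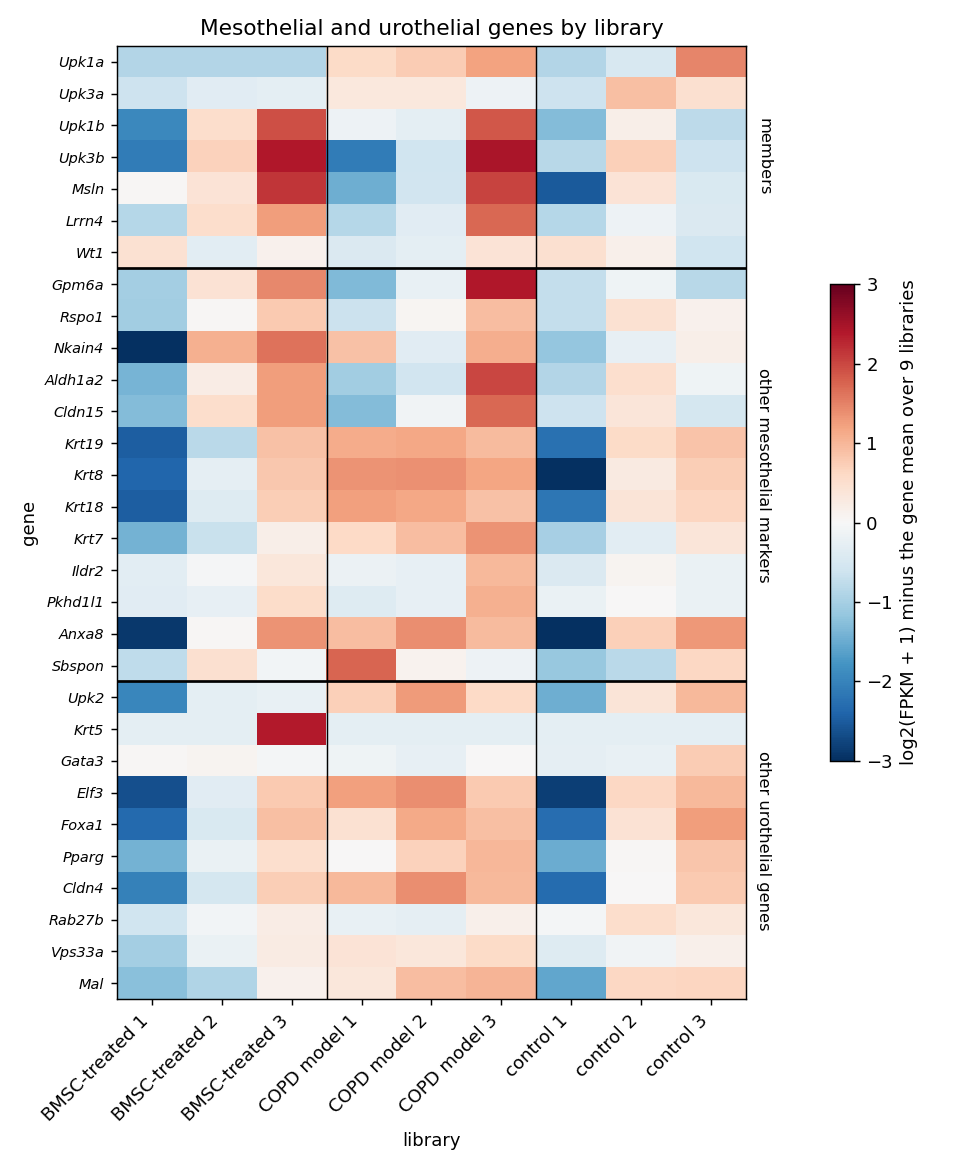
Colour gives log2(FPKM + 1) minus the mean of the gene over 9 libraries, with the scale ending at -3 and 3, for the 7 members, 13 other mesothelial markers and 10 other urothelial genes (rows) in each library (columns). Msln, Upk3b, Upk1b, Lrrn4, Gpm6a, Aldh1a2 and Cldn15 are highest in COPD model 3 and BMSC-treated 3, while Krt8, Krt18 and Krt19 are lowest in BMSC-treated 1 and control 1.

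When all 11764 other tested genes were ranked by likeness to a member, the measure being the root mean square difference of log2(FPKM + 1), centred on each gene's mean, over the 9 libraries, the nearest to Upk3b were Cldn15 (0.625), Aldh1a2 (0.637) and Gpm6a (0.641). Upk1b came at rank 5 and Lrrn4 at rank 6 of this order. The nearest to Msln were Lrrn4 (0.761), Gpm6a (0.790) and Aldh1a2 (0.805), with Upk1b at rank 11 and Upk3b at rank 35. All these genes share the same 9 libraries and their depth, so the ranks describe these libraries. The nearest to Upk1a were other genes: Pus10, a pseudouridine synthase (0.323), Vnn1, a pantetheinase (0.353), and Ccl21a, a lymphoid chemokine with near-identical copies among which reads may be split (0.355). Msln and Upk3b came at ranks 11716 and 11746 from Upk1a, and its partner Upk2 at rank 2010. The median difference over all ranked genes was 0.760 from Upk1a, 1.31 from Msln and 1.43 from Upk3b. The measure grows with how much a gene varies between libraries, so a far rank does not by itself mean an opposite pattern.

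Of 15 other genes of the urothelium on the list, 10 were in the table, most of them also used by airway epithelium. Krt20, a keratin of umbrella cells, Psca, a surface antigen of urothelium, Trp63, the basal cell factor p63, Grhl3 and Snx31 were not among the listed genes. Krt5, the basal cell keratin, was listed at 0 in 8 libraries and had 5.38 FPKM in BMSC-treated 3. The most abundant were Elf3, an epithelial transcription factor, at 0.352, 5.66 and 13.6 FPKM in BMSC-treated libraries, against 18.9, 21.3 and 13.5 FPKM in COPD model and 0.197, 12.1 and 15.5 FPKM in control libraries, then Foxa1, a factor of lung and bladder epithelium, and Mal, an apical sorting protein. Cldn4, a claudin, averaged 3.34 ± 3.64 FPKM in BMSC-treated, 9.87 ± 1.94 FPKM in COPD model and 3.87 ± 3.81 FPKM in control lungs (SD, n = 3 each). Vps33a, Pparg, Gata3 and Rab27b lay at group means of 0.772 to 4.24 FPKM. Of the 9 tested, 0 passed in any comparison. In COPD model lungs their median log2 change against control was 0.86, beside 0.66 over all genes tested. In BMSC-treated lungs it was -1.44 against the COPD model, beside -0.75 over all genes, and -0.33 against control, beside -0.10.

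The first test asked whether smoke and smoke extract changed these genes. In COPD model against control lungs, 0 of the 5 tested members passed at an adjusted p under 0.05 by limma, against 0.0765% of all genes tested (9 of 11765), and 6.59% of all genes had an unadjusted p under 0.05. Among the members this was so for Upk1a, whose COPD model values had chosen it. Upk1b averaged 10.1 ± 10.0 FPKM in COPD model and 3.40 ± 2.34 FPKM in control lungs (SD, n = 3 each), a log2 change of 1.11 ± 0.71 (SE; adjusted p = 0.514, limma). Msln averaged 8.79 ± 11.8 FPKM in COPD model and 3.26 ± 3.29 FPKM in control lungs, a log2 change of 0.85 ± 0.71 (adjusted p = 0.514, limma). Upk3b averaged 8.07 ± 12.4 FPKM in COPD model and 3.09 ± 2.59 FPKM in control lungs, a log2 change of 0.16 ± 0.72 (adjusted p = 0.866, limma). Lrrn4 averaged 1.79 ± 2.73 FPKM in COPD model and 0.316 ± 0.308 FPKM in control lungs, a log2 change of 0.66 ± 0.41 (adjusted p = 0.514, limma). These log2 changes lie beside a median of 0.66 over all genes, and each difference of means was smaller than the SD of the COPD model group. COPD model 3 set that SD: without it the log2 change was -0.16 for Msln, -1.10 for Upk3b, -0.11 for Lrrn4 and 0.42 for Upk1b, and without control 3 that of Upk3b was -0.026.

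Upk1a averaged 2.35 ± 0.781 FPKM in COPD model and 1.46 ± 2.25 FPKM in control lungs (SD, n = 3 each), a log2 change of 0.81 ± 0.39 (SE; adjusted p = 0.514, limma). The control group was spread by control 3. Without it the log2 change was 1.52 with an adjusted p of 0.0198 (limma), and over the other settings run the adjusted p lay between 0.138 and 0.998. Without control 3, Upk1a meets the filter through the COPD model libraries alone, whose values also chose it, so that p is no support. Among the 7 members, 0 had COPD model libraries all above or all below the control libraries, against 23% of all listed genes.

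The second test asked whether lungs given BMSCs differed from control. In BMSC-treated against control lungs, 0 of the 5 tested members passed by limma, as did 0 of all 11765 genes tested (0%), with 48 genes (0.408%) at an unadjusted p under 0.05. Msln, at 11.9 ± 10.7 FPKM in BMSC-treated and 3.26 ± 3.29 FPKM in control lungs, differed by 1.72 ± 0.71 on the log2 scale (SE; adjusted p = 0.9999, limma). Msln and Upk1a were the members among those 48, and for Upk1a the zeros in BMSC-treated libraries are values that chose it. Upk1a, with log2(FPKM + 1) at 0 in BMSC-treated libraries and a mean of 0.913 in control libraries, did not pass (adjusted p = 0.9999, limma). The log2 changes were 0.81 ± 0.71 for Upk1b, 0.58 ± 0.72 for Upk3b and 0.79 ± 0.41 for Lrrn4 (adjusted p = 0.9999 each, limma), with a median of -0.10 over all genes. Of the 7 members, 0 had groups that did not overlap, against 0.822% of all listed genes. The labels used here state no pairing of libraries. Same-numbered BMSC-treated and control libraries were taken as pairs only because their deviations from group means correlated, at 0.632, 0.194 and 0.497. The 0.632 belongs to BMSC-treated 1 and control 1, the libraries that stood apart. Within these 3 assumed pairs Msln was higher after BMSCs in 3, Upk1b in 2, Lrrn4 in 2 with 1 pair at 0 in both, and Upk3b in 1. Upk1a and Upk3a were each lower after BMSCs in 2 pairs and at 0 in both libraries of the other. Fitted as pairs, Msln had an adjusted p of 0.918 (limma). Without BMSC-treated 3 the log2 change was 1.08 for Msln, -0.065 for Upk1b, -0.46 for Upk3b and 0.32 for Lrrn4.

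**Figure D4:**
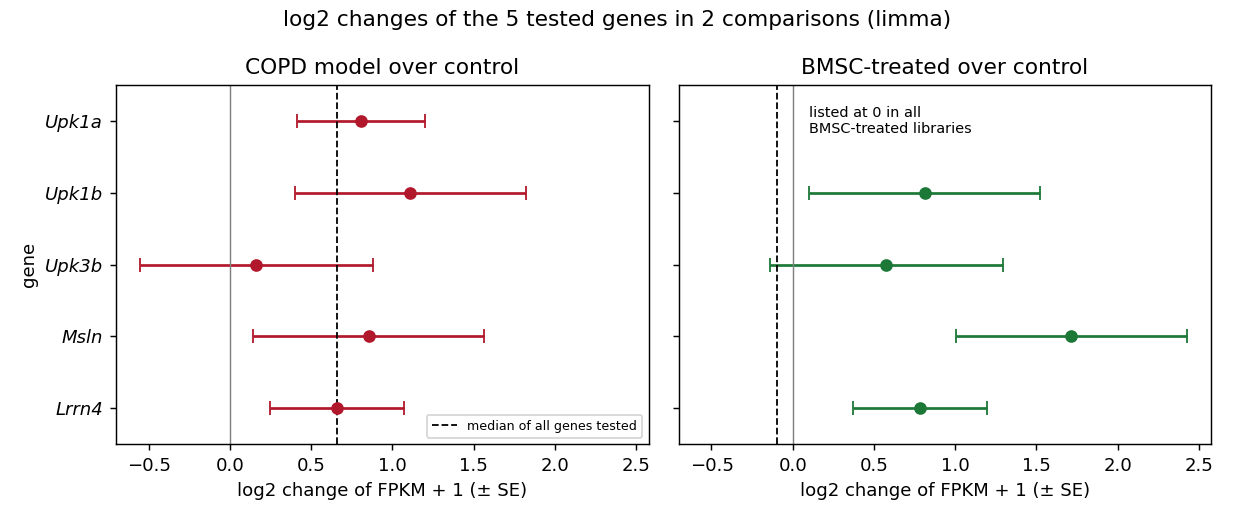
log2 change of FPKM + 1 (x axis) with its SE for the 5 tested genes (y axis) in COPD model over control on the left and BMSC-treated over control on the right; the dashed line is the median of all genes tested, and Upk1a is not drawn on the right, where it is listed at 0 in all BMSC-treated libraries. Of the 5 genes, 0 pass in either comparison, and in COPD model over control the bars of all 5 include the median of all genes, 0.66.

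For BMSC-treated against COPD model lungs, the comparison from which Upk1a had been put forward, the members are described without a test. Upk1a had been 1 of 7 genes called lower there (0.0595% of those tested), which is how it was chosen and supports nothing, and no gene was called with a pseudocount of 0.1, with rescaled FPKM or without a trend of variance with level. Upk1a and Upk3a had all BMSC-treated libraries below all COPD model libraries, 2 of 7 members, and so did 29.3% of all listed genes, a like share. The median log2 change over all genes was -0.75. For the other tested members the log2 change was 0.86 for Msln, 0.41 for Upk3b, 0.13 for Lrrn4 and -0.30 for Upk1b, with overlapping groups in each. Their signs depended on single libraries of either group, apart from Msln. With 1 library at a time left out, the log2 change lay between 0.13 and 1.88 for Msln, -0.62 and 1.68 for Upk3b, -0.39 and 0.89 for Lrrn4, and -1.18 and 0.76 for Upk1b. Upk3b was below 0 without BMSC-treated 3 or COPD model 1, Lrrn4 without BMSC-treated 3, COPD model 1 or COPD model 2, and Upk1b was above 0 without BMSC-treated 1 (0.76), without COPD model 3 (0.40) and on rescaled FPKM (0.32). Upk1b averaged 10.5 ± 11.3 FPKM in BMSC-treated and 10.1 ± 10.0 FPKM in COPD model lungs (SD, n = 3 each), and Upk3b averaged 9.18 ± 11.2 FPKM in BMSC-treated and 8.07 ± 12.4 FPKM in COPD model lungs.

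Relatives and partners of the members were read from the same fit. Of 27 tetraspanins other than Upk1a and Upk1b, 25 were tested and 0 passed in any comparison, with a median log2 change of 0.80 in COPD model against control lungs. Their median in BMSC-treated lungs was -0.69 against the COPD model and -0.10 against control. The most abundant was Cd9, a broadly expressed tetraspanin, at 35.9, 115.3 and 185.4 FPKM in BMSC-treated, 147.0, 164.5 and 203.5 FPKM in COPD model and 28.6, 141.5 and 164.8 FPKM in control libraries, followed by Cd63, a tetraspanin of lysosomes, and Tspan13. Furin, the protease that cuts the mesothelin precursor, had a log2 change of 0.74 ± 0.59 (SE) for COPD model against control (adjusted p = 0.514, limma). Of 13 partners and targets of WT1, 10 were tested and 0 passed. The most abundant of these were Basp1, a corepressor of WT1, Podxl, a sialomucin of podocytes and vessels that WT1 activates in the kidney, and Spry1, an inhibitor of receptor tyrosine kinase signalling. Podxl was highest in COPD model 3, at 31.5 FPKM against 8.07 and 14.6 FPKM in COPD model 1 and 2. Lrrn3 was the 1 other gene of its family in the table, with a log2 change of 0.99 ± 0.64 (SE) for COPD model against control (adjusted p = 0.514, limma). The 11 tested mesothelial markers had 0 calls in any comparison, with a median log2 change of 1.0 in COPD model against control lungs. In BMSC-treated lungs it was -0.70 against the COPD model and 0.10 against control.

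Markers of other cell types in COPD model 3, where the mesothelial genes stood high, are given by their sums, with the 3 genes of highest mean FPKM of each list. Endothelial markers, led by Cldn5, Cdh5 and Car4, summed to 294.2 FPKM there, against 114.9 and 167.5 FPKM in COPD model 1 and 2. Alveolar type 1 markers, led by Hopx, Ager and Aqp5, summed to 741.3 FPKM against 397.2 and 450.0, and alveolar type 2 markers, led by Sftpc, Lyz2 and Sftpb, to 5855 against 3259 and 3550. Fibroblast markers, led by the matrix genes Dcn, Col1a1 and Col1a2, summed to 223.0 FPKM against 119.4 and 138.5, and macrophage markers, led by C1qa, C1qb and Chil3, to 86.4 against 51.3 and 55.4. Erythroid genes, led by the globins Hbb-bs, Hba-a2 and Hba-a1, summed to 1275 FPKM against 412.5 and 365.6. Club cell and ciliated marker sums were lower in COPD model 3. Club cell markers, led by Scgb1a1, Cyp2f2 and Scgb3a2, summed to 165600 FPKM against 261000 and 240200, with Scgb1a1 alone at 159400 FPKM in COPD model 3. Ciliated markers, led by Sec14l3, Dynlrb2 and Tppp3, summed to 1321 against 1564 and 1671. Cyp2f2 and Sec14l3 did not follow their sums. Cyp2f2 had 3201 FPKM in COPD model 3 against 2920 and 3115, and Sec14l3 514.7 against 455.1 and 472.9. The other named genes of both lists were lower there. Smooth muscle (Acta2, Tagln, Des), cardiac (Actc1, Myl7, Tnni3) and neutrophil (S100a9, S100a8, Retnlg) sums in COPD model 3 lay between those of COPD model 1 and 2. Of these named genes, Des, Tnni3, S100a9 and S100a8 did not lie between and were lowest of the group in COPD model 3. Of the genes on all these lists, Scgb1a1 alone passed, with a log2 change of 2.62 ± 0.37 (SE) in COPD model against control (adjusted p = 3.23e-06, limma) and -3.29 ± 0.37 in BMSC-treated against COPD model lungs (adjusted p = 4.31e-10, limma). Both calls were lost with a pseudocount of 0.1, with rescaled FPKM and without the trend, under which no gene passed. Among BMSC-treated libraries, number 3 had the highest deposited sum for these lists other than endothelial, smooth muscle and erythroid markers, but on rescaled FPKM it was highest for fibroblast markers alone, at 135.7 against 55.5 and 90.4 in BMSC-treated 1 and 2. Macrophage markers, for example, summed to 114.9 FPKM in BMSC-treated 3 against 28.7 and 54.8 as deposited, and to 90.8 against 96.8 and 62.8 when rescaled. The part of these cell types in the level of the mesothelial genes was not tested.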

How the data were processed

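Per the file headers, the authors deposited the mRNA values as FPKM, one value per gene and library. The submitters' processing notes name cutadapt, FastQC, Bowtie and StringTie and the build mm10, without saying which made the FPKM. Every listed gene had at least 0.5003 FPKM as its highest group mean, so genes low in all groups are not among those analysed here. The tsRNA tables were not used here. The number of value columns assigned to no sample was 0. The depth is unknown.

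Genes with at least 1 FPKM in at least 3 of 9 libraries were tested (11765 of 13384): limma 3.58.1 (R 4.3.3) took log2(FPKM + 1) of all 9 libraries in one model with 3 group means, letting the prior variance follow the mean, and p was adjusted by Benjamini-Hochberg over all genes tested. Fold changes on this scale understate changes of low genes. The fit was run on simulated data, with recovery of set changes required only at a spread smaller than the real one. That run therefore does not show recovery at the real spread. Tables and plots used Python 3.11.15, pandas 2.3.3, numpy 2.4.6 and matplotlib 3.10.9.

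The members and lists were chosen with earlier results of these data known. All 7 members are named; from other lists, the 3 genes of highest mean FPKM, any called gene and, for mesothelial and urothelial lists, every gene in the table; cell type lists are given by their sums. One cell type list is not reported here. Likeness was ranked for Upk1a, Msln and Upk3b, with 3 genes named each. Deviations from group means of same-numbered libraries correlated over genes at 0.632, 0.194 and 0.497 for BMSC-treated and control, which were taken as paired, and at -0.171 to 0.178 in pairs with COPD model libraries, which were not. The 0.194 of the libraries numbered 2 is close to the 0.178 of COPD model 2 and control 2. The pairing is thus an assumption drawn from the values and is stated by no label.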

Additional observations from a re-analysis of the deposited data

How the results depend on the processing

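Alternatives were another pseudocount, no filter or a stricter filter, rescaled FPKM, no trend, fits of 2 groups, a replicate block, and fits without libraries; the fits without COPD model 3 and BMSC-treated 3, and with only the paired groups, were chosen after seeing the data. The count of members called stayed at 0 for BMSC-treated against control throughout, and for COPD model against control ranged from 0 to 1 when 1 library at a time was left out, the 1 being Upk1a without control 3. With the replicate block 0 members passed in either comparison, and the adjusted p in the paired fit of BMSC-treated and control was 0.918 to 0.931 (limma). Of 183 log2 changes of the 5 genes recomputed in the comparisons with control, 166 kept their direction and side of the threshold, 16 changed sign, with none of them called, and 1 passed where it had not. Many of the 166 could not change sign. Another filter, no trend, fits of 2 groups, the replicate block, or leaving out a library outside the comparison gives the same log2 change and can move only its p. The 166 is therefore no measure of stability. For COPD model against control Upk3b turned to -0.67 with a pseudocount of 0.1, -0.32 with rescaled FPKM, -0.13 without control 1 and BMSC-treated 1, and -1.10 without COPD model 3 and BMSC-treated 3. The last fit gave -0.16 for Msln and -0.11 for Lrrn4. With single libraries left out the range was -1.10 to 1.17 for Upk3b, -0.16 to 1.58 for Msln and -0.11 to 1.18 for Lrrn4. For BMSC-treated against control Upk3b turned to -0.14 with a pseudocount of 0.1, and without COPD model 3 and BMSC-treated 3 it was -0.46 and Upk1b -0.065. With single libraries left out it was -0.46 to 1.79 for Upk3b and -0.065 to 1.87 for Upk1b. Over all genes, the 9 calls in COPD model against control became 0 with a pseudocount of 0.1, with rescaled FPKM or without the trend, 1 without a filter, 2 with only those groups, 17 with the replicate block and 1 to 47 with single libraries left out. The 15 calls in BMSC-treated against COPD model became 0 with a pseudocount of 0.1, with rescaled FPKM or without the trend, 6 without a filter, 34 with the block and 0 to 35 with single libraries left out. The 0 calls in BMSC-treated against control became 6 without control 1 and BMSC-treated 1, and 0 to 2 with single libraries left out. Lrrn4 was not tested under the stricter filter. Rescaling moved the median of all genes to 0.14 in COPD model against control lungs, and in BMSC-treated lungs to -0.15 against the COPD model and -0.01 against control. With 3 libraries a group and unknown depth, differences of the size seen between libraries of 1 group could not be told from group effects.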
